A study of Arabidopsis thaliana with 14 samples.

Results

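The aliphatic glucosinolate pathway of Arabidopsis thaliana was followed through 10 named genes in mRNA-seq of whole seedlings. The members were chosen by locus, with earlier results of these data known. The set held the regulators MYB28 (AT5G61420), MYB29 (AT5G07690) and MYB76 (AT5G07700), the chain elongation genes BCAT4 (AT3G19710), MAM1 (AT5G23010) and MAM3 (AT5G23020), and the core structure genes CYP79F1 (AT1G16410), CYP79F2 (AT1G16400), CYP83A1 (AT4G13770) and SOT17 (AT1G18590). They were 10 of 21912 genes listed for soil-grown plants and 10 of 33602 listed for plants grown in sterile medium, and all 10 had enough reads to be tested in each experiment.

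The groups were wild-type Col-0 and the mutant ibm1-1, a point mutation in the Col-0 background of IBM1, a histone demethylase that removes H3K9 methylation from gene bodies. In the soil experiment, seedlings stayed 5 days on a 1/2 MS plate and a further 10 days in soil, and 3 replicates of each genotype were sequenced, each a pool of seedlings. In the medium experiment, 7-day-old seedlings were taken from 1/2 MS medium, with 2 replicates of each genotype. Within an experiment both genotypes were grown alike, and the mutant was represented here by this single allele. Age, substrate and replicate number differed between the experiments, and by the study's methods the read processing did too, although the labels name the same tools for both. Their parts in any difference between soil and medium cannot be told apart.

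Glucosinolates are sulfur-rich defence compounds of the cabbage family. The aliphatic class is made from methionine, which is first lengthened by chain elongation enzymes, then turned by cytochrome P450s and a sulfotransferase into the core structure, and finally altered in its side chain. Myrosinases break glucosinolates down into toxic products when tissue is damaged, and MYB28, MYB29 and MYB76 are the transcription factors that switch on the aliphatic genes.

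The positions are given on the TAIR10.1 assembly as RefSeq annotates it. MYB29 (chr5:2446669-2448584, plus strand, 3 exons) and MYB76 (chr5:2450027-2451807, plus strand, 4 exons) are neighbours with 1442 bases between them, whereas MYB28 (chr5:24689069-24691187, minus strand, 3 exons) lies far away on the same chromosome. MAM1 (chr5:7703041-7706973, 10 exons) and MAM3 (chr5:7718118-7721866, 10 exons) are both on the plus strand, 11144 bases apart. CYP79F2 (chr1:5605044-5607498, 3 exons) and CYP79F1 (chr1:5608682-5612064, 3 exons) form a tandem pair on the plus strand with 1183 bases between them. BCAT4 (chr3:6846969-6849582, minus strand, 9 exons), CYP83A1 (chr4:7990429-7992429, minus strand, 2 exons) and SOT17 (chr1:6398531-6400029, plus strand, 1 exon) stand alone. BCAT4 overlaps AT3G19700 on the opposite strand, and because the strand setting of the counting was not given in the sources used here, reads of the pair may not be separated.

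Neighbouring copies differ in how far their reads can be told apart, and the number of reads that fit both copies is not known from the tables. CYP79F1 and CYP79F2 were 88.6% identical over 1983 aligned columns and shared an exact run of 100 bases, MAM1 and MAM3 were 80.8% identical with a longest shared run of 30 bases, and MYB29 and MYB76 were 74.2% identical with a longest run of 30 bases. Values of CYP79F1 and CYP79F2 are therefore the least certain as separate genes.

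The 250 bases before each start were searched on both strands for the G-box CACGTG, which is bound by MYC2 and its relatives, and for the AC elements ACCAACC and ACCTACC, which R2R3-MYB factors can bind. Among 27443 promoters of this length, 6.49% held CACGTG, 2.69% held ACCAACC and 1.16% held ACCTACC. Only 3 of the 10 promoters held any of these letters. They are printed below, 5′ to 3′ on the strand of the gene with the matches in capitals. CYP79F2 and CYP83A1 rose in soil and SOT17 did not, while the members without a match all rose in soil too. CYP79F2 (chr1:5604794-5605043, plus strand) held ACCTACC from 104 to 98 bases before its start. CYP83A1 (chr4:7992430-7992679, minus strand) held CACGTG from 43 to 38 bases before its start and ACCTACC, on the other strand and read here as GGTAGGT, from 71 to 65 bases before it. SOT17 (chr1:6398281-6398530, plus strand) held ACCAACC from 18 to 12 bases before its start. No motifs overlapped one another, and a match describes letters only.
CYP79F2: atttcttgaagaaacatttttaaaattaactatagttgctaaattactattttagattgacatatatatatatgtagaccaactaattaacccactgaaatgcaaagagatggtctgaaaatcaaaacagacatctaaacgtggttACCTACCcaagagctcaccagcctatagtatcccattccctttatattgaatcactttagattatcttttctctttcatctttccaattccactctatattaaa
CYP83A1: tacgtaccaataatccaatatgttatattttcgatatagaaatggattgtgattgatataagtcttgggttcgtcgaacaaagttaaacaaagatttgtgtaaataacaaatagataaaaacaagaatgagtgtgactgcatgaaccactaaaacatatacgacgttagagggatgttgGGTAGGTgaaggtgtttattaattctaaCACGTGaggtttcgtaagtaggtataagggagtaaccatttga
SOT17: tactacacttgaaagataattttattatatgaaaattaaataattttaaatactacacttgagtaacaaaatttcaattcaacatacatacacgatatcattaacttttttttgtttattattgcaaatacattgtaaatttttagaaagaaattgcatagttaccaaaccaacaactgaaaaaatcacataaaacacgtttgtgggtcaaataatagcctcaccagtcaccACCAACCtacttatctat

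Libraries held between 19957585 and 27001069 counts in soil and between 18260809 and 21411230 in medium. The biological coefficient of variation, the spread between replicates of a typical gene, was 0.039 in soil and 0.106 in medium, so with fewer replicates as well a change of the same size was harder to call in medium. IBM1 (AT3G07610) itself was lower in ibm1-1, from 25.8 ± 0.750 to 19.2 ± 0.633 CPM (SD, n = 3), counts per 1000000 of the scaled library size, in soil and from 26.2 ± 1.54 to 17.2 ± 0.0012 CPM (SD, n = 2) in medium, with log2 fold changes of -0.42 and -0.60. As the allele is a point mutation, this level does not by itself check the labels. Every marker of leaf, root and vascular tissue on the 3 lists was detected in each group.

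Levels were compared between genes as RPKM, the CPM divided by the exon length in kilobases, merged over all annotated transcripts. For CYP79F1 this length was 3272 bases, beside 2743 in its longest transcript, so its RPKM would be higher by the latter. In soil-grown Col-0, MAM1 (137.8 RPKM), CYP83A1 (102.0) and BCAT4 (79.4) were the most abundant, followed by CYP79F1 (41.3), SOT17 (27.7) and MYB28 (23.5). MAM3 (13.3 RPKM), MYB29 (11.4), CYP79F2 (3.26) and MYB76 (1.80) were the lowest, and the replicate ranges of neighbours in this order did not overlap. In medium-grown Col-0 the order was different. BCAT4 (78.7 ± 19.1 RPKM, SD, n = 2), CYP83A1 (76.8 ± 17.5) and MAM1 (70.2 ± 18.96) had overlapping ranges, MAM3 (40.2 ± 2.33) came next, and from MYB28 (27.9) through CYP79F1 (25.5) and SOT17 (18.4) to CYP79F2 (15.4) each gene overlapped the next. MYB29 (6.64 RPKM) and MYB76 (0.68) were the lowest. The levels come from separate tables, so they are not compared between the experiments by a test.

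In soil, ibm1-1 plants had more mRNA of nearly the whole set. Of the 10 genes, 9 rose at an adjusted p below 0.05, by 1.21-fold (MAM1) to 1.81-fold (CYP79F2), and 0 fell. The sole exception was SOT17, which encodes a sulfotransferase of the last core step. Significance was taken from the quasi-likelihood test of edgeR, adjusted by the Benjamini-Hochberg method over 20082 genes, of which 25.4% were called higher and 25.9% lower. The members' median log2 fold change was 0.51 beside 0.00017 over all genes tested. No member passed the stricter rule of a differentially expressed gene (DEG), a fold change above 2 together with an adjusted p below 0.05, which 5.87% of genes passed as higher and 2.39% as lower. At an unadjusted p below 0.05 and by DESeq2 the number of members lower was also 0, and no member reached a fold change of 2.

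**Figure D1:**
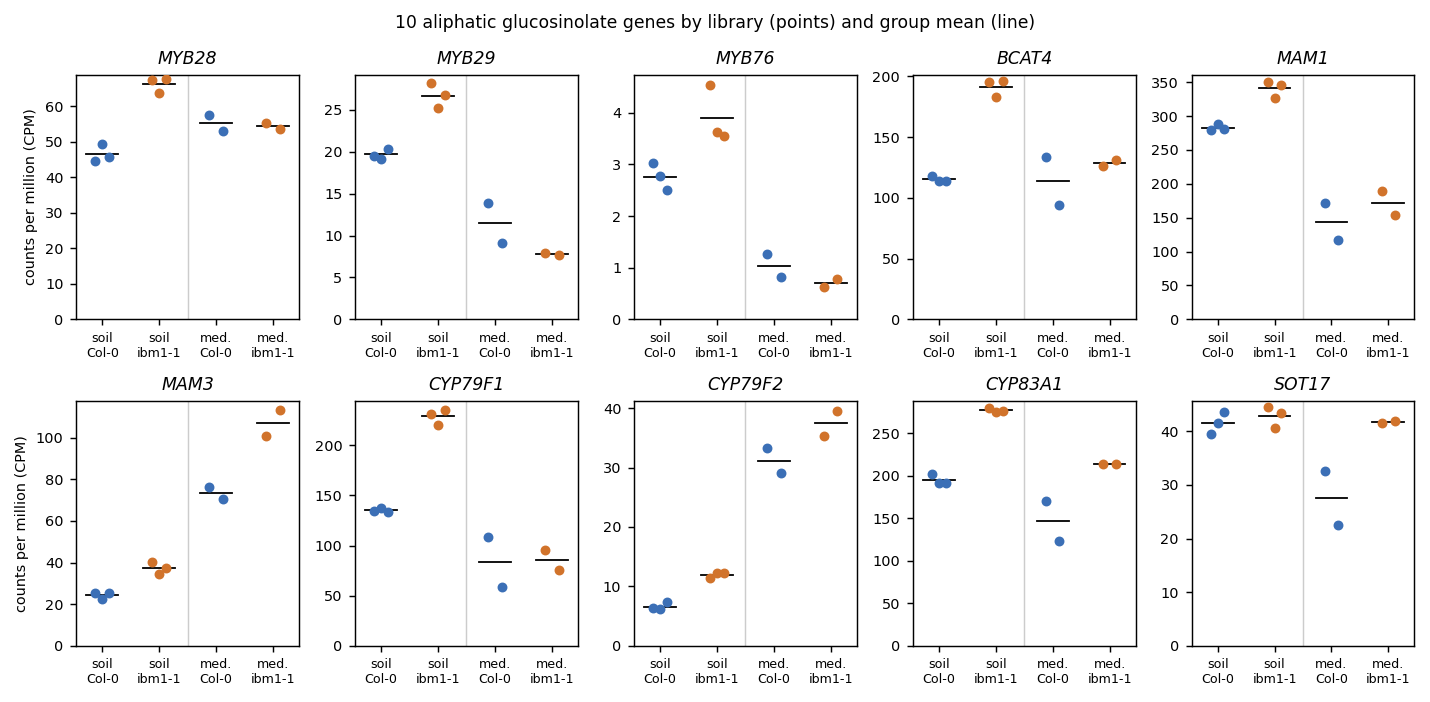
CPM (vertical axes, from 0) of the 10 genes in each library (points) and the group mean (line), for Col-0 (blue) and ibm1-1 (orange) in soil and in medium. In soil every ibm1-1 library lies above every Col-0 library for 9 of the 10 genes, SOT17 being the exception, and for 28.5% of all genes tested. In medium the 2 Col-0 libraries lie far apart for CYP79F1 (108.3 and 58.7 CPM).

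The 3 regulators moved to a like extent. MYB28, the main activator of the pathway, was at 44.6, 49.5 and 45.6 CPM in the Col-0 replicates and at 67.4, 63.8 and 67.8 CPM in ibm1-1. All 3 mutant libraries lay above all 3 controls, and the log2 fold change was 0.51 (SE 0.0496, adjusted p from edgeR 4.09e-10). MYB29, which acts beside MYB28 in the short-chained branch, was at 19.5, 19.1 and 20.4 CPM in Col-0 and at 28.2, 25.2 and 26.7 CPM in ibm1-1, again without overlap (log2 fold change 0.44, SE 0.0639). MYB76, a weaker activator of the same family, rested on few reads, with 53 to 78 counts per Col-0 library and 89 to 111 per ibm1-1 library. It was at 3.02, 2.78 and 2.50 CPM in Col-0 and 4.55, 3.64 and 3.55 CPM in ibm1-1 (log2 fold change 0.49, SE 0.157, edgeR adjusted p 0.0092). The MYB76 call was lost without ibm1-1 soil replicate 1, its highest library, where the log2 fold change was 0.38 and the edgeR adjusted p 0.0798.

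The chain elongation genes rose by unequal amounts. BCAT4, the aminotransferase that takes methionine into the pathway, was at 117.8, 114.2 and 113.8 CPM in Col-0 and 195.1, 183.1 and 196.5 CPM in ibm1-1, a log2 fold change of 0.73 (SE 0.0419). MAM1, the condensing enzyme for short side chains, was at 280.0, 287.7 and 280.4 CPM in Col-0 and 349.5, 327.3 and 346.1 CPM in ibm1-1. The groups did not overlap, but this was the smallest rise among the 9 genes called (log2 fold change 0.27, SE 0.0405). MAM3, the condensing enzyme able to make all chain lengths up to the longest, was at 25.3, 22.6 and 25.2 CPM in Col-0 and 40.0, 34.3 and 37.6 CPM in ibm1-1 (log2 fold change 0.61, SE 0.0628). The ratio of MAM1 to MAM3 counts per exon base, taken within each library, was 10.4 ± 0.849 in Col-0 and 8.16 ± 0.363 in ibm1-1 (SD, n = 3), with all mutant ratios below all control ratios. A two-sided exact permutation test gave p = 0.1 for this ratio, the smallest that 3 libraries against 3 allow.

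Among the core structure genes, the P450s had the largest rises. CYP79F1, which converts chain-elongated methionines to aldoximes, was at 134.6, 137.4 and 133.4 CPM in Col-0 and 231.0, 219.9 and 235.6 CPM in ibm1-1 (log2 fold change 0.76, SE 0.0411). Its tandem copy CYP79F2, restricted to long-chained substrates, was at 6.31, 6.13 and 7.28 CPM in Col-0 and 11.4, 12.2 and 12.2 CPM in ibm1-1. This was the largest fold change of the set (0.86 on the log2 scale, SE 0.0961), on 117 to 172 counts per Col-0 library. The ratio of CYP79F1 to CYP79F2 per exon base was 12.8 ± 1.31 in Col-0 and 11.8 ± 0.688 in ibm1-1 (SD, n = 3), and an exact permutation test did not separate the genotypes (two-sided p = 0.3). CYP83A1, the P450 that oxidises the aldoximes, was at 201.6, 190.9 and 191.7 CPM in Col-0 and 280.1, 274.4 and 276.5 CPM in ibm1-1, with no overlap (log2 fold change 0.51, SE 0.04). SOT17 was at 39.5, 41.6 and 43.7 CPM in Col-0 and 44.6, 40.6 and 43.5 CPM in ibm1-1. These SOT17 values were intermixed, and the log2 fold change of 0.05 (SE 0.0534) had an adjusted p of 0.505 by edgeR.

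Every mutant library exceeded every control for 9 of 10 members, a separation that 28.5% of all genes tested also showed. By log2 fold change, between 7.04% (CYP79F2) and 21.6% (MAM1) of all genes tested lay above each called member, and 43.8% lay above SOT17. Without TMM normalisation, scaling by library size alone shifted the centre of the log2 fold changes over all genes to 0.12 and split the calls over all genes into 7877 higher and 3241 lower, in place of 5109 and 5198. With that scaling SOT17 also passed, at a log2 fold change of 0.16 and an edgeR adjusted p of 0.014, 0.12 of it being that shift. Summed vascular markers (5 genes) ranged from 252.0 to 266.3 CPM in soil Col-0 and from 186.8 to 200.1 CPM in ibm1-1. SUC2 made up most of this sum (214.8 and 149.7 CPM, log2 fold change -0.52) and was the 1 vascular marker of 5 that passed. VND7 (-0.49), MYB46 (-0.43) and ATHB8 (-0.10) also had negative log2 fold changes, and only that of APL was positive (0.10). In the same libraries summed root markers (6 genes, 2 higher and 1 lower) ranged from 15.9 to 17.0 and from 15.3 to 18.4 CPM and summed leaf markers (4 genes, 2 lower) from 21766 to 23352 and from 19254 to 23787 CPM. Their part in the members' levels was not tested, and in whole seedlings fewer cells of a type and less RNA per cell cannot be told apart.

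In medium fewer members passed, of which MAM3 and CYP83A1 had also passed in soil and SOT17 had not. SOT17, CYP83A1 and MAM3 rose in ibm1-1, by 1.52-fold, 1.46-fold and 1.46-fold, and no member fell at an adjusted p below 0.05. Across the 20871 genes tested, edgeR called 11.5% higher and 7.77% lower. The members' median log2 fold change was 0.21 beside -0.0087 for all genes, and again 0 members were DEGs, a rule that 5.53% of genes passed as higher and 1.53% as lower. At an unadjusted p below 0.05 in edgeR 1 member was lower (MYB29), and by DESeq2 0 were.

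MAM3 was at 76.5 and 70.4 CPM in the Col-0 replicates and at 100.8 and 113.2 CPM in ibm1-1. The genotypes were separate, with a log2 fold change of 0.54 (SE 0.115, edgeR adjusted p 0.0103). CYP83A1 was at 170.2 and 122.9 CPM in Col-0 and at 213.7 CPM in both ibm1-1 libraries (log2 fold change 0.54, SE 0.152, edgeR adjusted p 0.034). SOT17, level in soil, was at 32.6 and 22.5 CPM in Col-0 and at 41.6 and 41.9 CPM in ibm1-1 (log2 fold change 0.60, SE 0.161, edgeR adjusted p 0.029). For each of these 3 genes both mutant libraries lay above both controls.

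The other chain elongation and P450 genes did not pass. BCAT4 was at 133.7 and 94.5 CPM in Col-0 and 125.9 and 131.5 CPM in ibm1-1 (log2 fold change 0.17, SE 0.156), and MAM1 at 171.5 and 116.5 CPM against 188.7 and 154.0 CPM (0.25, SE 0.179). CYP79F1, with the second largest rise in soil, was at 108.3 and 58.7 CPM in Col-0 and 95.7 and 75.3 CPM in ibm1-1, so that both mutant values lay between the controls (log2 fold change 0.04, SE 0.239). CYP79F2 was at 33.3 and 29.0 CPM in Col-0 and 35.4 and 39.6 CPM in ibm1-1, without overlap but with a log2 fold change of only 0.27 (SE 0.12, edgeR adjusted p 0.155).

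The regulators gave the lowest fold changes of the set in medium. MYB28 was at 57.5 and 52.9 CPM in Col-0 and 55.4 and 53.7 CPM in ibm1-1 (log2 fold change -0.02, SE 0.107). MYB29 was at 13.9 and 9.08 CPM in Col-0 and 7.96 and 7.65 CPM in ibm1-1, lower in both mutant libraries, with a log2 fold change of -0.55 (SE 0.206) that did not pass (edgeR adjusted p 0.0919) but did with no filter on low counts (-0.56, edgeR adjusted p 0.0139). MYB76 had only 12 to 25 counts per library and was at 1.26 and 0.82 CPM in Col-0 and 0.63 and 0.78 CPM in ibm1-1 (log2 fold change -0.56, SE 0.421). Replicates did not overlap for 4 members higher in ibm1-1 (MAM3, CYP79F2, CYP83A1 and SOT17) and 2 lower (MYB29 and MYB76), with 30.8% and 31.0% of all genes tested separating in these directions.

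The Col-0 libraries in medium decided much of this count. Replicate 1 was above replicate 2 for 10 of 10 members, by 1.09-fold to 1.84-fold with a median of 1.43, while over all genes 52.7% were higher in replicate 1 and 34.7% reached at least the lowest of those ratios. In ibm1-1, 5 of 10 members were higher in replicate 1. Without Col-0 medium replicate 1, 6 members were called higher, namely MAM3, CYP83A1 and SOT17 together with BCAT4 (log2 fold change 0.44), MAM1 (0.55) and CYP79F1 (0.54). Without Col-0 medium replicate 2, MAM3 alone was called higher, and MYB29 was called lower (log2 fold change -0.83, edgeR adjusted p 0.0135). Leaving out ibm1-1 medium replicate 1 removed CYP83A1 from the calls and leaving out replicate 2 removed MAM3, with 2 members called higher in each case. In these fits the lone library of a genotype was assumed to vary like the other group. Summed root markers in medium ranged from 92.2 to 100.6 CPM in Col-0 and from 61.4 to 73.3 CPM in ibm1-1, summed leaf markers from 18801 to 20681 and from 15887 to 16414 CPM, and summed vascular markers from 158.8 to 190.7 and from 143.2 to 149.1 CPM. Of these, 2 of 6 root markers, 1 of 4 leaf markers (BCA1) and 0 of 5 vascular markers were lower by edgeR and 0 higher, and LHCB1.2 (0.70) and LHCB2.1 (0.32) had positive log2 fold changes that did not pass. Their part in the medium values was not tested.

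Whether the genotype difference itself changed between experiments was tested as an interaction in limma (voom with quality weights, 10 libraries, 20192 genes). The effects were compared with their sign, so that a stronger fall in soil counts as a smaller effect. On that scale the genotype effect was larger in soil for 5 members and smaller for 1, against 7.64% of all genes above and 9.64% below. The regulators MYB28 (soil minus medium 0.55 on the log2 scale, SE 0.114, adjusted p 0.00179) and MYB29 (0.98, SE 0.217, adjusted p 0.00279) were in the first group. BCAT4 (0.56, SE 0.126), CYP79F2 (0.59, SE 0.149) and CYP79F1 (0.68, SE 0.183) were also larger in soil. SOT17 was the gene with the smaller effect in soil (-0.56, SE 0.152, limma adjusted p 0.0126). MAM1 (0.02, SE 0.141), MAM3 (0.11, SE 0.130) and CYP83A1 (-0.04, SE 0.118) did not pass, and for MYB76 the difference of 1.06 had a SE of 0.58. Without Col-0 medium replicate 1 the CYP79F1 difference was 0.24 and no longer passed, CYP83A1 passed at -0.27, and the counts were 4 larger and 2 smaller in soil. Without Col-0 medium replicate 2 the SOT17 difference was -0.29 and no longer passed, MAM1 passed at 0.29, and the counts were 6 and 0.

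**Figure D2:**
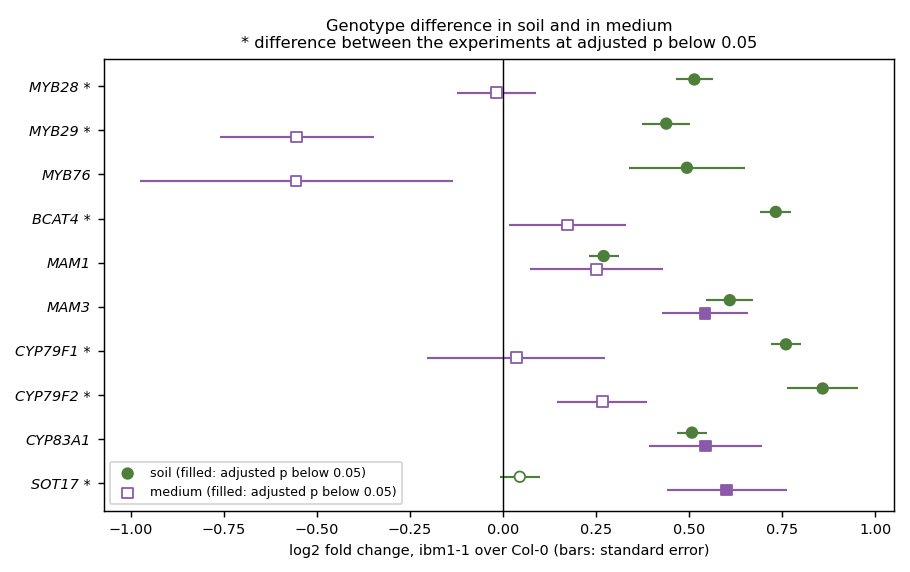
Log2 fold change of ibm1-1 over Col-0 (horizontal axis, bars are standard errors) for each of the 10 genes in soil (circles, n = 3 per genotype) and medium (squares, n = 2 per genotype), filled where the edgeR adjusted p was below 0.05. Soil values run from 0.05 (SOT17) to 0.86 (CYP79F2) and medium values from -0.56 (MYB76) to 0.60 (SOT17), and asterisks mark the 6 genes whose difference between experiments passed.

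The neighbouring copies also stood in different proportions in the experiments. MAM1 to MAM3 was 1.74 ± 0.371 in Col-0 and 1.44 ± 0.323 in ibm1-1 in medium (SD, n = 2, two-sided exact permutation p = 0.667), compared with ratios of 10.4 and 8.16 in soil. CYP79F1 to CYP79F2 was 1.63 ± 0.537 and 1.42 ± 0.351 in medium (exact permutation p = 0.667), compared with 12.8 and 11.8 in soil. With 2 libraries per genotype this test cannot go below 0.333. Age, substrate and any difference in read processing cannot be told apart here. Tissue markers differed as well. In Col-0, summed root markers ranged from 15.9 to 17.0 CPM in soil and from 92.2 to 100.6 CPM in medium. Summed leaf markers ranged from 21766 to 23352 and from 18801 to 20681 CPM, and summed vascular markers from 252.0 to 266.3 and from 158.8 to 190.7 CPM. RBCS1A made up most of the leaf sum (mean 13526 CPM in soil and 14330 CPM in medium), which hid opposite differences. LHCB1.2 (4413 and 306 CPM) and LHCB2.1 (2322 and 18.1 CPM) were lower in medium, whereas BCA1 (2529 and 5087 CPM) was higher. The part of the tissue markers in these ratios was not tested.

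**Figure D3:**
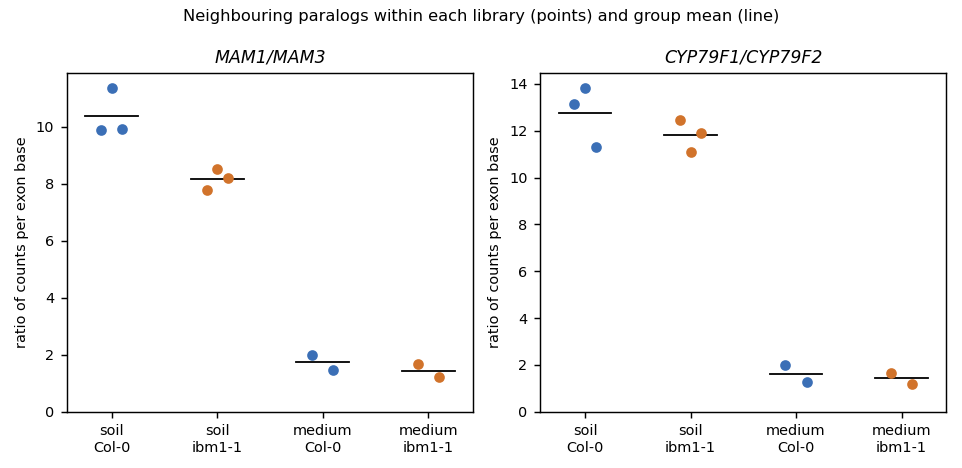
Ratio of counts per exon base (vertical axes, from 0) of MAM1 to MAM3 and of CYP79F1 to CYP79F2 in each library (points), with group means (lines), for Col-0 (blue) and ibm1-1 (orange). Group means run from 8.16 to 12.8 in soil and from 1.42 to 1.74 in medium.

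A wider list of 38 aliphatic pathway genes, chosen with earlier results of these data known, was read in the same fits. In soil, 25 of the 37 genes tested rose, 5 fell and 7 did not pass, with a median log2 fold change of 0.24 (all genes 0.00017), where 25.4% of all genes were called higher and 25.9% lower. All 7 other chain elongation genes and all 6 breakdown genes rose in soil. Of 9 core structure genes 5 rose and 1 fell, of 8 side chain genes tested 4 rose and 2 fell, and of 5 regulators 3 rose and 1 fell. In medium, 9 of 37 rose, 1 fell and 27 did not pass (median 0.23, all genes -0.0087), where 11.5% and 7.77% of all genes were called. By role, 1 of 7 chain elongation, 3 of 9 core structure, 2 of 8 side chain and 2 of 5 regulator genes rose in medium, and of 6 breakdown genes 1 rose and 1 fell. None of these 3 core structure genes was called higher in soil, and 1 of them was the core structure gene that fell there. The breakdown gene that fell in medium, named here after its values were seen, was TGG1, a myrosinase, at 1132 and 1474 CPM in Col-0 and 915.0 and 937.6 CPM in ibm1-1 (log2 fold change -0.49, edgeR adjusted p 0.0453). This call was lost at a mean CPM of at least 5 and without Col-0 medium replicate 2 or either ibm1-1 library, and in soil TGG1 rose (0.16, SE 0.0433). For the whole list the number that rose was 16 without Col-0 medium replicate 1, 4 without replicate 2, 5 without ibm1-1 medium replicate 1 and 6 without replicate 2. AOP3, the remaining gene, was not listed in soil and had too few reads in medium.

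The DEGs of the wider list included repressors as well as pathway genes. SDI1, which represses aliphatic glucosinolate synthesis and is induced by sulfur deficiency, was at 0.58, 0.47 and 0.72 CPM in soil Col-0 and at 4.01, 4.86 and 3.98 CPM in ibm1-1. This 7.12-fold rise (log2 fold change 2.83, SE 0.216) rested on 41 and 321 counts summed over the replicates. In medium SDI1 was at 1.26 and 0.73 CPM in Col-0 and 10.3 and 3.66 CPM in ibm1-1 (log2 fold change 2.82, SE 0.492, edgeR adjusted p 0.00401), the mutant libraries differing from each other more than the controls. Its relative SDI2 was at 5.50, 6.24 and 6.27 CPM in soil Col-0 and 15.4, 15.3 and 16.8 CPM in ibm1-1, a 2.65-fold rise. In medium SDI2 was at 18.5 and 19.4 against 26.7 and 23.5 CPM (log2 fold change 0.40, edgeR adjusted p 0.0477), a call lost in each fit without a library, with library size alone, at a mean CPM of at least 5 and in DESeq2.

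ESM1, which steers glucosinolate breakdown towards isothiocyanates, rose in both experiments. It was at 510.8, 507.0 and 512.7 CPM in soil Col-0 and 1047, 1050 and 1103 CPM in ibm1-1 (log2 fold change 1.06, SE 0.0415), and at 259.1 and 236.1 against 793.5 and 774.8 CPM in medium (1.66, SE 0.121). FMOGS-OX2, a side chain S-oxygenase, was at 4.45, 3.35 and 3.47 CPM in soil Col-0 and 9.38, 7.87 and 8.68 CPM in ibm1-1 (1.18, SE 0.126). In medium its log2 fold change of 0.78 (edgeR adjusted p 0.0417) did not pass at a mean CPM of at least 5 or without Col-0 medium replicate 2 or ibm1-1 medium replicate 1. The single DEG that fell was GTR1, a plasma membrane importer that moves glucosinolates between tissues. It was at 144.0, 145.4 and 137.7 CPM in soil Col-0 and 68.9, 71.1 and 70.5 CPM in ibm1-1 (log2 fold change -1.02, SE 0.0425), which came under a fold of 2 with library size alone (-0.90) and, marginally, at a mean CPM of at least 5 (-0.9988). In medium GTR1 was at 106.3 and 76.1 CPM in Col-0 and 114.1 and 78.2 CPM in ibm1-1, with overlapping groups, and its genotype effect differed between experiments by -1.09 (SE 0.163, limma adjusted p 6.01e-05). GTR1 and SDI2, like BCAT4, overlap annotated genes on the opposite strand, whose reads may be included.

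**Figure D4:**
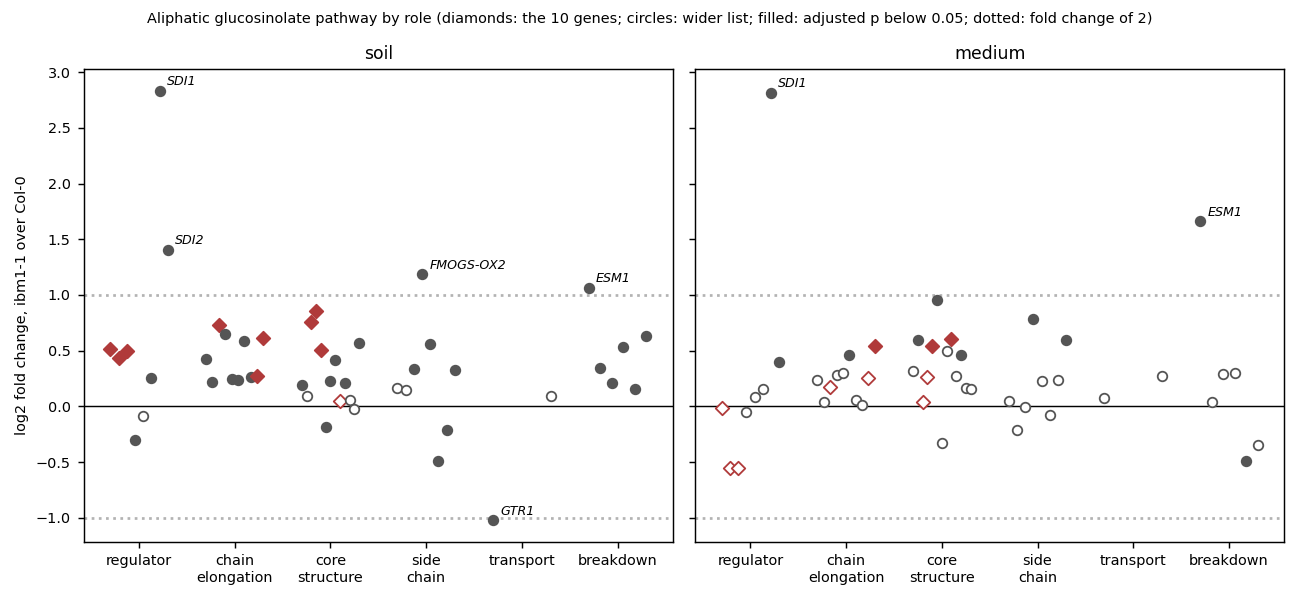
Log2 fold change of ibm1-1 over Col-0 (vertical axis) for the 10 genes (diamonds) and the tested genes of the wider aliphatic list (circles) by role, in soil and in medium, filled where the edgeR adjusted p was below 0.05, with DEGs named and dotted lines at a fold change of 2. In soil 25 of 37 genes of the wider list were called higher and 5 lower, and in medium 9 and 1. Over all genes, 25.4% were called higher and 25.9% lower in soil, and 11.5% and 7.77% in medium.

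The indole glucosinolate genes, which make the tryptophan-derived class through parallel enzymes, gave other values. In soil 1 of 6 tested genes rose and 4 fell (median log2 fold change -0.19), and in medium 4 of 7 rose and 1 fell (median 0.89). Over all genes 25.4% were called higher and 25.9% lower in soil, and 11.5% and 7.77% in medium. CYP83B1, the indole counterpart of CYP83A1, was at 290.9, 280.2 and 275.8 CPM in soil Col-0 and 253.2, 255.1 and 254.8 CPM in ibm1-1 (log2 fold change -0.15, SE 0.0395). In medium it was at 110.0 and 102.6 CPM in Col-0 and 245.4 and 295.1 CPM in ibm1-1 (1.35, SE 0.128), and the soil minus medium difference was -1.48 (limma adjusted p 3.69e-09). MYB51, an activator of the indole branch, was at 30.4, 31.3 and 28.04 CPM in soil Col-0 and 35.9, 37.1 and 42.3 CPM in ibm1-1 (0.36, SE 0.0618). In medium it was at 5.96 and 4.75 CPM in Col-0 and 17.97 and 16.95 CPM in ibm1-1 (1.71, SE 0.162). The soil CYP83B1 call was lost with library size alone, where the log2 fold change was -0.03.

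The members were also compared by their pattern over the 10 libraries, as log2 CPM centred within each experiment, so that genotype, replicate and library scaling are what the points share. Against the mean of the other 9 members, Pearson's r was highest for BCAT4 (0.989) and CYP79F1 (0.940), and lowest for MYB76 (0.613), MYB29 (0.548) and SOT17 (0.406). Outside the lists, the 3 genes most like the members' mean among 19621 compared were BBX18 (AT2G21320, a B-box zinc finger factor, r = 0.988), NAP57 (AT3G57150, a pseudouridine synthase, r = 0.986) and AT2G34250 (r = 0.983). Their log2 fold changes were 1.13, 0.36 and 0.11 in soil and 0.23, 0.09 and 0.03 in medium, so genes with changes of quite different size can share this pattern. None of the 3 passed in medium, and the AT2G34250 call in soil was lost without Col-0 soil replicate 2 or ibm1-1 soil replicate 1.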

How the data were processed

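Gene counts of 10 mRNA-seq libraries were used as deposited. Per the labels, the authors' processing used Trimmomatic 0.36, HISAT2 2.1.0 and HTSeq 0.9.1, whereas the study's methods give SolexaQA, cutadapt, TopHat2 and HTSeq for the soil reads. The authors mapped to TAIR10 and deposited 1 table of raw counts per experiment. The soil table had 40 empty columns. Bisulfite samples (4) were not analysed here.

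Each experiment was fitted apart in edgeR 4.0.16 (R 4.3.3) with TMM factors, filterByExpr and the quasi-likelihood test, adjusted over all genes. CPM used TMM-scaled library sizes. RPKM and the ratios of neighbouring copies used the exon length merged over all transcripts of RefSeq's TAIR10.1 annotation. The interaction was fitted in limma 3.58.1 and DESeq2 1.42.0 was an alternative. Log2 CPM for the pattern comparison had 0.5 added. Transcripts were aligned with Biopython 1.88. No sequence tables of proteins were used. Scripts were tested on simulated data. Members and lists were chosen with earlier results of these data known, and the genes named are the members, DEGs of the aliphatic and indole lists, IBM1, the 3 most similar genes and, after its values were seen, TGG1. By the study's methods, the soil replicates are biological replicates of pooled seedlings, and the medium replicates are biological replicates for which no pool is described. In no pair of replicates did the counts agree within sampling noise (chi-square per degree of freedom 2.3 to 13.28). Alternatives changed the scaling, the filter, the test and the replicate block, and left out each library.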

Additional observations from a re-analysis of the deposited data

Results flagged for a closer look

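Among the genes named in the report, the following were picked out because the genotype difference in soil and in medium differed by a test of that difference (limma interaction, adjusted over 20192 genes), given here as soil minus medium on the log2 scale. The signed soil effect lay above the medium effect for MYB29 (0.98), CYP79F1 (0.68), CYP79F2 (0.59), BCAT4 (0.56) and MYB28 (0.55), and of the wider list for SDI2 (1.01) and TGG1 (0.65). It lay below the medium effect for SOT17 (-0.56), ESM1 (-0.59), GTR1 (-1.09), MYB51 (-1.36) and CYP83B1 (-1.48). Counting unnamed genes as well, the soil effect was above for 4 of 37 genes of the wider list and below for 7. For the 7 indole genes these counts were 0 and 5. Over all genes tested, 7.64% lay above and 9.64% below. ESM1 rose in both experiments, CYP83B1 fell in soil and rose in medium, and GTR1 fell in soil and did not pass in medium. TGG1 and MYB29 had positive log2 fold changes in soil (0.16 and 0.44) and negative ones in medium (-0.49 and -0.55), the last of which did not pass. Age, substrate, replicate number and any difference in read processing cannot be told apart. Summed root markers also differed between the experiments, and their part in these values was not tested. With groups of 2 and 3 libraries, no single library was tested as standing apart.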

How the results depend on the processing

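In soil the members called higher numbered 9, with 10 under library size alone (SOT17 added), 8 at a mean CPM of at least 5 (MYB76 then not tested) and 8 to 9 without single libraries. With library size alone, the wider list had 3 genes lower in soil in place of 5. The soil effect was then below the medium effect for 0 members in place of 1, and the CYP83A1 soil minus medium difference turned to 0.10. In medium MYB29 made 1 member lower with no filter (-0.56, adjusted p 0.0139), and the wider list then had 2 lower, against 0 at a mean CPM of at least 5, where 6 rose in place of 9. The replicate numbers were not taken as pairs: same-numbered deviations correlated at -0.02, 0.0179 and 0.017 in soil and at 0.147 in medium. With the replicate block, 9 members were higher in soil, 3 were higher and 1 lower in medium (MYB29, log2 fold change -0.54, edgeR adjusted p 0.0238), the interaction counts stayed at 5 and 1, and all genes in medium gave 2976 higher and 2270 lower calls in place of 2391 and 1622. Without single libraries, the medium counts ranged over 1 to 6 members higher and 0 to 1 lower, 4 to 16 genes of the wider list higher and 0 to 2 lower, and the interaction over 4 to 6 larger and 0 to 2 smaller. Values that changed sign without a single library ranged in medium from -0.0787 to 0.0387 for MYB28, -0.0573 to 0.44 for BCAT4, -0.0027 to 0.55 for MAM1, -0.34 to 0.54 for CYP79F1, -0.22 to 0.33 for GTR1, -0.19 to 0.78 for BBX18, -0.0843 to 0.29 for NAP57 and -0.0342 to 0.084 for AT2G34250. As soil minus medium they ranged from -0.26 to 0.29 for MAM1, -0.27 to 0.19 for CYP83A1 and -0.60 to 0.89 for SDI1. Where no value shows it, the cause was not tested. Depth limits MYB76 and SDI1, and 2 libraries per genotype limit every medium value.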
